A study of Oryza sativa with 12 samples.

Results

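The genotype by salt interaction asks, locus by locus, whether rice seeds that lack OsMFT1 answered salt differently from wild-type seeds, and whether such a difference comes from seeds in salt or from seeds in water. All 12 libraries of the series enter it, in 4 groups of 3. The groups were osmft1 seeds in 300 mM NaCl, WT seeds in 300 mM NaCl, osmft1 seeds in water and WT seeds in water. WT is Zhonghua 11, a japonica rice, and osmft1 is a knockout of OsMFT1, for which the labels give no allele, line number or generation. All seeds were surface-sterilised and kept at 28 °C with 15 h of light and 9 h of dark. Each library is bulk RNA-seq of total RNA from whole seeds, with values in FPKM, which scale the fragments of a gene by its length and the library's depth. The value lists hold 35204 gene IDs per library, and the test took in the 22017 that had 1 FPKM or more in 3 or more libraries. Of the rest, 1035 IDs reached that level in exactly 2 libraries, just short of the rule, and 778 tested IDs reached it in exactly 3.

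OsMFT1 belongs to the MOTHER OF FT AND TFL1 branch of the phosphatidylethanolamine-binding proteins, a branch known for its part in dormancy and germination of seeds, through abscisic acid and gibberellin. Salt slows germination by limiting water uptake and by ion toxicity. An interaction in a design of this kind is the genotype difference in salt minus the genotype difference in water, so the same value can arise from seeds in either treatment.

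The IDs carry no gene names, and of the IDs listed only 1, which was not tested, matched the gene table of the rice assembly ASM3414082v1. Loci are therefore given by ID, with the chromosome that the ID itself names and the transcript length implied by the values, and no role is assigned to them. For the same reason the level of OsMFT1 was not analysed here, the genotype labels were not checked against it, and the tissue was not checked against marker genes. The total of reads implied by the values was 14379728 to 15688593 per library. Reads at the listed IDs made up 99.98% or more of it, so it counts reads given to genes and not the full sequencing depth. Nothing in the labels tells whether replicates are separate cultures or seed lots, so the p-values reflect only how far these libraries scatter, part of which may be technical. No label gives a sampling time, so germination stage and response cannot be told apart, and in whole seeds neither can fewer cells of a type and less RNA per cell.

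Differences below are in log2(FPKM + 1), tested with limma over all tested IDs and called at a Benjamini-Hochberg adjusted p under 0.05. The interaction was called at 2872 IDs, which is 13.0% of the tested list. Of these, 619 (21.6%) were called in each of the 12 fits that left out 1 library. Without osmft1 salt replicate 1 or 3 the number called was 1186 and 859, without WT salt replicate 1, 2 or 3 it was 1585, 1052 and 1262, without osmft1 water replicate 1 or 2 it was 752 and 1054, and without WT water replicate 2 or 3 it was 969 and 863. Leaving out each of the other 3 libraries gave 3186 to 4202. A positive interaction was called at 6.92% of tested IDs and a negative one at 6.12%, so 53.1% of calls were positive, and this share was 34.9% without the 50 most abundant IDs, 65.1% with no filter and 43.8% to 73.7% when 1 library was left out. The genotype difference itself was called at 5.45% of tested IDs in salt (4.33% higher and 1.12% lower in osmft1) and at 30.4% in water (20.0% higher and 10.4% lower). The libraries of the genotypes did not overlap at 25.1% of tested IDs in salt and at 48.0% in water. To separate the sources, the mean of the genotype differences over both treatments was tested as well. With equal groups it is estimated independently of the interaction, and its sign relative to the interaction says in which treatment the genotype difference is the larger in size. This mean difference was called at 18.5% of tested IDs.

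The genotype difference was larger in salt at 140 of the 2872 IDs (4.87%) and larger in water at 831 (28.9%). At the other 1901 IDs (66.2%) the mean difference was not called and the side was not resolved, and these may include IDs that differ between genotypes in one treatment alone. By point estimate, the water difference made up a median of 0.73 of the interaction (25th to 75th percentile 0.5 to 0.91), and it made up more than 0.75 of it, or exceeded it, at 970 and 395 IDs. The salt side carried more than 0.75 of the interaction at 169 IDs and exceeded it at 80. By the separate calls in each treatment, 328 IDs differed between genotypes in salt only, 2077 in water only, 114 in both treatments in opposite directions and 37 in both in the same direction, with 316 called in neither. Being called in one treatment and not in the other is a description here and no test of a difference, and the number called in salt only was 115 when each treatment was fitted alone. Of the IDs not resolved, 642 with a positive and 631 with a negative interaction were called in water only, and 176 and 23 in salt only. A further 107 and 6 were called in both treatments in opposite directions, where the differences partly cancel in the mean.

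**Figure D1:**
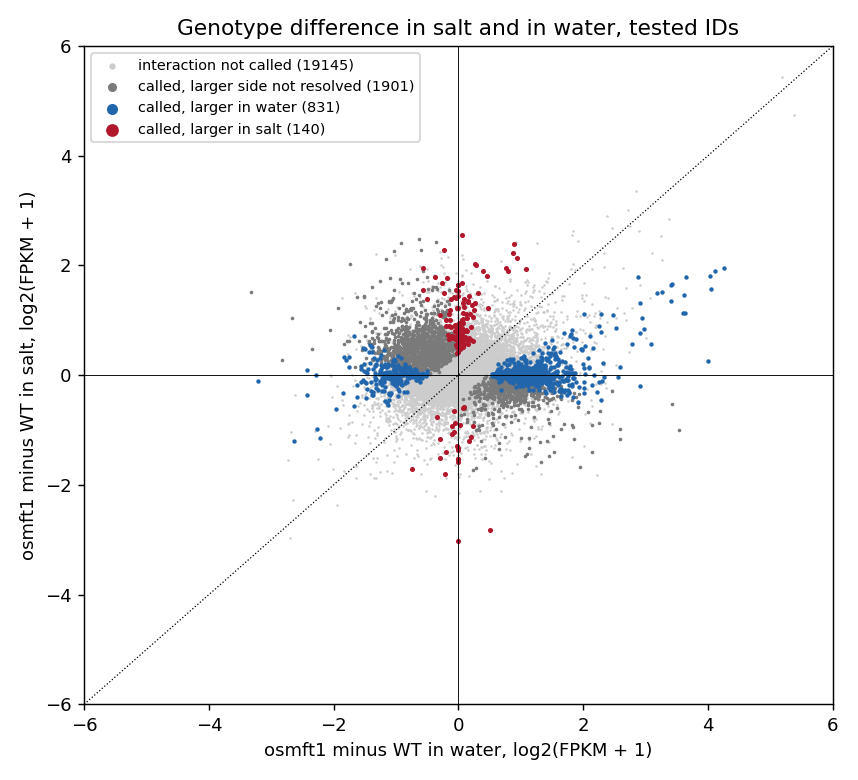
Each point is one of the 22017 tested IDs, with osmft1 minus WT in water on the x axis and in salt on the y axis, both in log2(FPKM + 1), and the dotted line marks equal differences. The 831 IDs with a larger difference in water lie mainly along the x axis and the 140 with a larger difference in salt mainly along the y axis, and the grey called IDs fill the sectors between them.

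Both counts changed with single libraries. Without osmft1 salt replicate 1 or 3, 77 and 53 IDs were larger in salt and 294 and 237 larger in water. Without WT salt replicate 1, 2 or 3, 65, 63 and 88 were larger in salt and 332, 260 and 262 larger in water. Without osmft1 water replicate 1 or 2, 44 and 37 were larger in salt and 158 and 284 larger in water. Without WT water replicate 2 or 3, 48 and 43 were larger in salt and 225 and 207 larger in water. Leaving out the other 3 libraries moved both counts by less than 1.5 times. In each of these fits, more IDs were larger in water than in salt. Without both osmft1 libraries numbered 1, 18 were larger in salt and 72 in water.

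**Figure D2:**
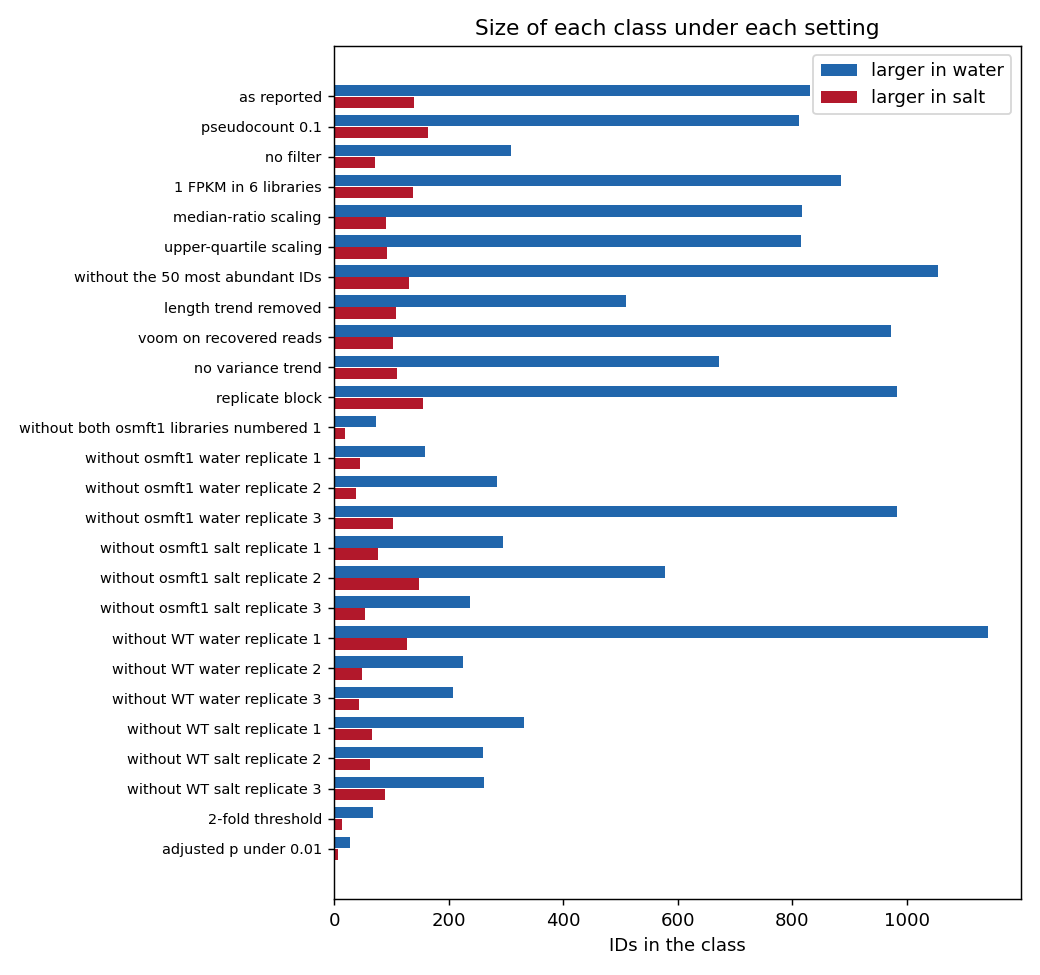
Bars give the number of IDs (x axis) with the genotype difference larger in water (blue) or larger in salt (red) as reported and under each alternative setting (y axis). The blue bar is the longer in every setting, from 28 against 7 at an adjusted p under 0.01 to 1142 against 127 without WT water replicate 1.

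Among the IDs with the larger difference in water, 605 were higher in osmft1 and 226 lower, so 72.8% were higher, but this balance turned to 46.5% higher under median-ratio scaling (380 higher and 438 lower) and fell to 57.2% higher under upper-quartile scaling. It rose to 85.3% higher without the 50 most abundant IDs. It also turned without WT water replicate 3 (49.3% higher) and without both osmft1 libraries numbered 1 (44.4% higher). Median-ratio scaling moved the median water difference of all tested IDs from 0.11 to -0.06. Under it, 343 of the 605 higher IDs and 223 of the 226 lower IDs kept their class and direction. The 605 higher IDs had a median genotype difference of 0 in salt and 1.15 in water, and the 226 lower IDs one of 0.01 in salt and -1.05 in water. Since the calls themselves chose these IDs, their medians are descriptions, and so are the counts of separated libraries below, for these and the other classes: the calls favour that order, and nothing is read from the gap to the share of all tested IDs.

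The 226 loci lower in osmft1 in water stood at a similar mean level in 3 of the groups. Their mean log2(FPKM + 1) was 4.14 ± 0.0492 in osmft1 salt, 4.16 ± 0.0263 in WT salt, 4.12 ± 0.0697 in osmft1 water and 5.24 ± 0.146 in WT water (SD, n = 3 libraries). At 164 of them (72.6%) all WT water libraries lay above the other 9, against 9.06% of all tested IDs. The osmft1 water libraries lay below the other 9 at 67 of them, against 4.8% of all tested IDs.

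In the 605 loci higher in osmft1 in water both water groups stood apart in their mean level, osmft1 water above the other 9 libraries and WT water below them. Their mean was 3.58 ± 0.222 in osmft1 salt, 3.51 ± 0.0761 in WT salt, 4.11 ± 0.263 in osmft1 water and 2.82 ± 0.193 in WT water (SD, n = 3 libraries). The WT water libraries lay below the other 9 at 387 of them (64%), against 12.5% of all tested IDs, and the osmft1 water libraries above the other 9 at 280 (46.3%), against 10.4%. Library osmft1 water replicate 1 had the highest mean of all, at 4.408, and among the salt libraries osmft1 salt replicate 2 was the highest at 3.839.

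**Figure D3:**
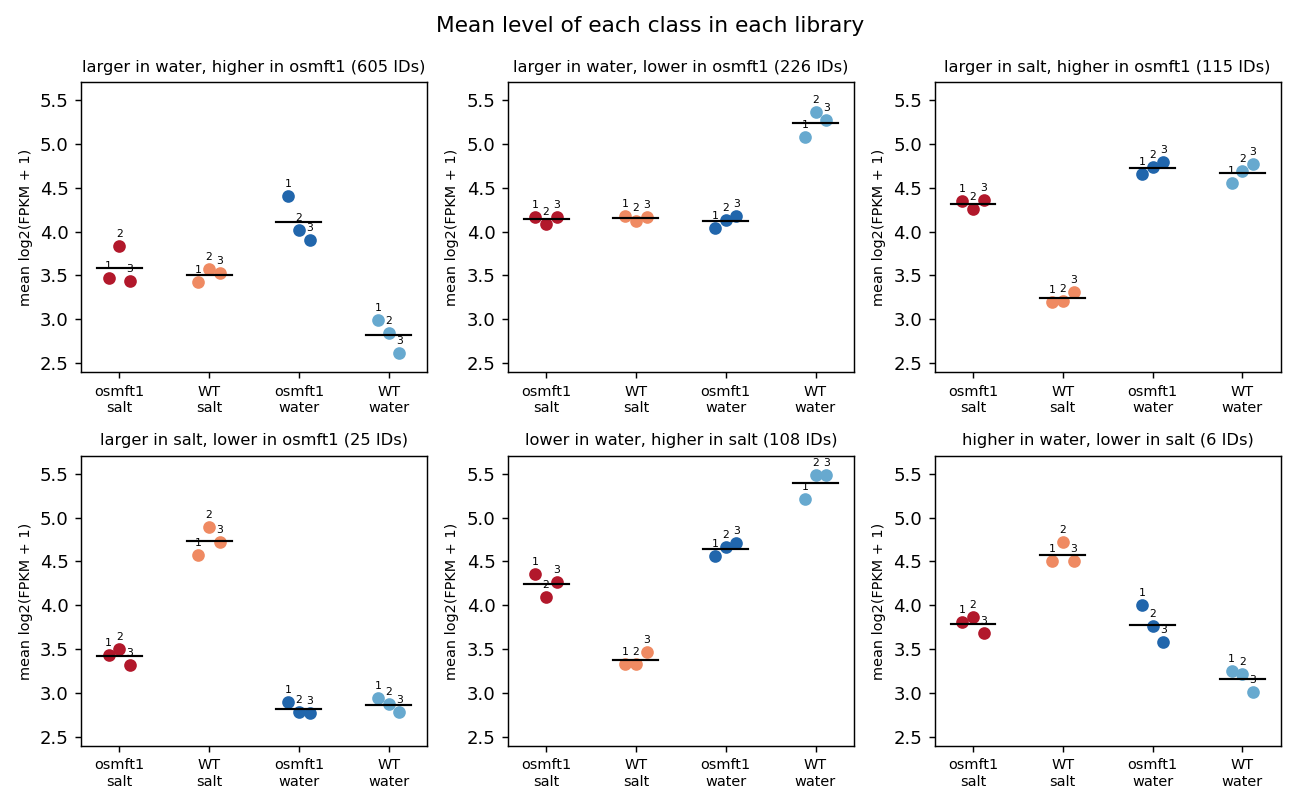
Each point is the mean log2(FPKM + 1) (y axis) of a class in one library, numbered by replicate, for the 4 groups (x axis), with a line at the group mean. WT water stands alone at 5.24 in the 226 loci lower in osmft1 in water and WT salt stands alone at 3.24 in the 115 loci higher in osmft1 in salt, while in the 605 loci higher in osmft1 in water the osmft1 water mean is the highest (4.11) and the WT water mean the lowest (2.82).

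Length went with direction in this class, and with the water difference over all tested Os loci. Over all of these, the median water difference was -0.15 in the shortest 25% and 0.4 in the longest 25%. The median salt difference was 0.12 and 0.02. The 605 higher IDs had a median implied length of 2490 bases and the 226 lower IDs one of 1187 bases, against 1432 bases over all tested IDs. In the longest 25% of Os loci (median 2848 bases) 6.86% were larger in water and higher in osmft1, and 0.277% larger in water and lower. In the shortest 25% (median 729 bases) these shares were 1.27% and 1.6%. With each library's trend on length taken out, 510 IDs were larger in water and 107 larger in salt, and 301 of the 605 and 117 of the 226 kept their class and direction. The part of transcript length in these calls beyond that step was not tested.

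**Figure D4:**
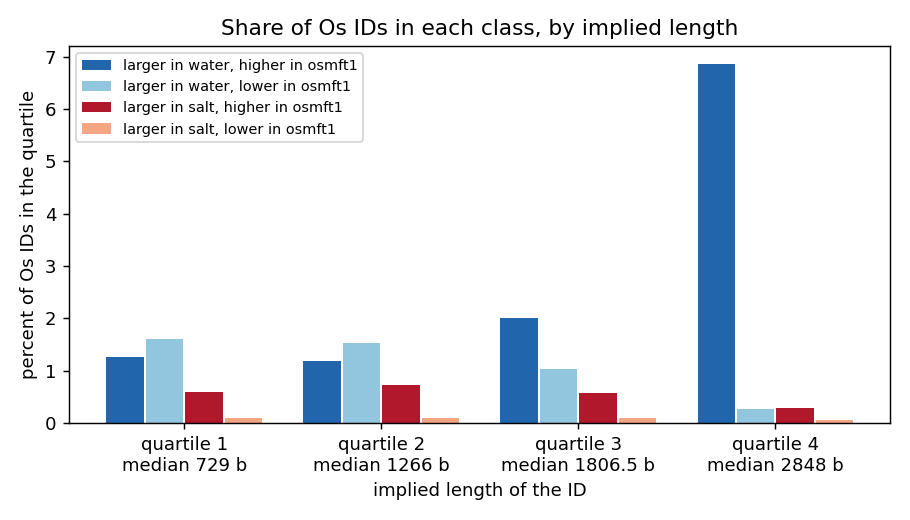
Bars give the percent of tested Os loci (y axis) in each class for 4 equal bins of implied length (x axis). The share larger in water and higher in osmft1 is 1.27% in the shortest bin and 6.86% in the longest, and the share larger in water and lower in osmft1 is 1.6% and 0.277%, a direction that depends on the scaling.

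Named loci were taken by the size of their interaction among those with at least 10 FPKM in the highest group and an interaction call kept in each of the 12 fits without 1 library. Loci larger in water were also required to have osmft1 and WT libraries that did not overlap in water, and loci larger in salt ones that did not overlap in salt. Separation in that treatment, at each such locus below, is thus a condition of choice and no result. The rule asked for the interaction call to be kept, not the class. The class was kept in all 12 of these fits at 130 of the 831 IDs larger in water and 27 of the 140 larger in salt. Among the named loci of these classes, the limma adjusted p of the mean difference ran from 0.000387 at Os02g0453600 to 0.0434 at Os12g0236100. In the class lower in osmft1 in water, Os07g0413800 (chromosome 7, implied length 1088 bases) stood at 0.433, 0.0639 and 0 FPKM in osmft1 salt and at 0.254, 0.371 and 0.126 FPKM in WT salt. In water it stood at 1.46, 3.15 and 1.13 FPKM in osmft1 against 10.1, 51.4 and 29 FPKM in WT. Both salt groups were near 0 and overlapped, and every osmft1 water library lay below every WT water library. The genotype difference was -0.11 ± 0.45 in salt (SE; limma, adjusted p = 0.931) and -3.21 ± 0.45 in water (adjusted p = 0.00123), an interaction of 3.1 ± 0.64 (adjusted p = 0.0189). A locus near 0 in salt cannot show a large difference there on this scale, and with 8 and 12 reads in the osmft1 and WT salt groups the interaction was not called by voom on recovered reads (2.65 on its log2 CPM scale, adjusted p = 0.398). It was also not called with a pseudocount of 0.1 (adjusted p = 0.0609) or without both osmft1 libraries numbered 1 (adjusted p = 0.0872).

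Os01g0225500 (chromosome 1, 1517 bases) followed the same order, at 0.177, 0.0458 and 0 FPKM in osmft1 salt and 0 in each WT salt library. In water it had 2.83, 2.22 and 1.16 FPKM in osmft1 against 8.45, 25.8 and 15.4 FPKM in WT, with no overlap. Its salt counts were 5 reads in osmft1 and 0 in WT, too few to compare. The difference was 0.1 ± 0.32 in salt (SE; limma, adjusted p = 0.911) and -2.43 ± 0.32 in water (adjusted p = 0.000915), and the interaction 2.53 ± 0.46 (adjusted p = 0.0136) was not called by voom (4.59, adjusted p = 0.0887). Means under 1 FPKM in both salt groups were found at 22 of the 226 loci (9.73%) and at 20 of the 605 (3.31%), against 8% of all tested IDs. Such loci pass the filter mainly through their water libraries, so a higher level in water is partly a condition of the filter there.

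Os10g0422075 (chromosome 10, 3237 bases) led the class higher in osmft1 in water. It had 2.04, 5.07 and 2.18 FPKM in osmft1 salt and 3.44, 5.13 and 4.53 FPKM in WT salt, which overlapped. Its water values were 20.1, 12.7 and 10.7 FPKM in osmft1 against 3.15, 2.65 and 0.916 FPKM in WT. All osmft1 water libraries lay above the other 9, and replicate 1 was the highest. The difference was -0.45 ± 0.34 in salt (SE; limma, adjusted p = 0.52) and 2.29 ± 0.34 in water (adjusted p = 0.00158), an interaction of -2.74 ± 0.48 (adjusted p = 0.0126), and without both osmft1 libraries numbered 1 it was -2.32 (adjusted p = 0.0587).

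Os02g0453600 (chromosome 2, 1771 bases) had 5.32, 4.28 and 7.97 FPKM in osmft1 salt and 2.58, 5.05 and 3.21 FPKM in WT salt. The water libraries gave 37.8, 21.2 and 15.6 FPKM in osmft1 against 2.16, 1.63 and 1.86 FPKM in WT. The osmft1 water libraries were again above all others and the salt groups overlapped. The difference was 0.57 ± 0.3 in salt (SE; limma, adjusted p = 0.322) and 3.08 ± 0.3 in water (adjusted p = 0.00023). Its interaction was -2.51 ± 0.43 (adjusted p = 0.0114).

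Among the 140 IDs with the larger difference in salt, 115 were higher in osmft1 and 25 lower, so 82.1% were higher, and this share was 61.1% (55 and 35) under median-ratio scaling and 54.3% (50 and 42) under upper-quartile scaling. The 115 had a median difference of 0.92 in salt and 0.01 in water, and the 25 one of -1.2 in salt and 0 in water. For the 115, the mean log2(FPKM + 1) was 4.32 ± 0.0586 in osmft1 salt, 3.24 ± 0.0621 in WT salt, 4.73 ± 0.0662 in osmft1 water and 4.67 ± 0.112 in WT water (SD, n = 3 libraries). All WT salt libraries lay below the other 9 at 99 of the 115 (86.1%), against 10.3% of all tested IDs. Of these 115, 42 kept their class and direction under median-ratio scaling and 114 kept the interaction call.

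The 25 lower loci showed the reverse order. Their mean was 3.42 ± 0.096 in osmft1 salt, 4.73 ± 0.159 in WT salt, 2.82 ± 0.0702 in osmft1 water and 2.87 ± 0.0799 in WT water (SD, n = 3 libraries). All WT salt libraries lay above the other 9 at 24 of the 25, against 3.76% of all tested IDs. At 8 of the 25 (32%) both water groups averaged under 1 FPKM, against 5.24% of all tested IDs. Such a locus passes the filter mainly through its salt libraries, so its higher level there is partly a condition of the filter and no result. With 1 FPKM asked for in 6 libraries, 19 of the 25 kept their class and direction. EPlOSAG IDs made up 7 of the 25, against 1787 of the 22017 tested. Class and direction were kept by 12 of the 25 under voom, 13 with a pseudocount of 0.1, 6 with no filter and 21 under median-ratio scaling.

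Os09g0346500 (chromosome 9, 1234 bases) led the loci higher in osmft1 in salt, at 12.2, 11.3 and 11.8 FPKM in osmft1 against 1.4, 2.78 and 2.89 FPKM in WT. For seeds in water it had 48.6, 59.9 and 68.2 FPKM in osmft1 and 57.5, 97.7 and 115.6 FPKM in WT. The salt libraries did not overlap between genotypes and the water libraries did. The difference was 1.96 ± 0.25 in salt (SE; limma, adjusted p = 0.00215) and -0.56 ± 0.25 in water (adjusted p = 0.106), an interaction of 2.52 ± 0.35 (adjusted p = 0.00732). With salt this locus fell in both genotypes, by 2.22 in osmft1, and fell by 4.74 in WT.

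Os10g0552800 (chromosome 10, 702 bases) had the highest group mean among the named loci. It stood at 135.2, 83.6 and 66.4 FPKM in osmft1 salt against 16.3, 18.3 and 19.6 FPKM in WT salt. Water values were 278.5, 416.4 and 441.7 FPKM in osmft1 and 365.6, 636.4 and 362.2 FPKM in WT. Osmft1 salt replicate 1 was the highest salt library, but all of its group lay above WT salt, and the water groups overlapped. The difference was 2.27 ± 0.28 in salt (SE; limma, adjusted p = 0.00173) and -0.24 ± 0.28 in water (adjusted p = 0.541), and the interaction was 2.51 ± 0.39 (adjusted p = 0.00808).

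Os01g0800800 (chromosome 1, 904 bases) was lower in osmft1 in salt, at 6.92, 8.92 and 6.58 FPKM against 24.2, 41.1 and 23.1 FPKM in WT. In water the locus had 0.292, 0.292 and 0.503 FPKM in osmft1 and 0.705, 0.869 and 0.219 FPKM in WT. Both water groups were near 0 and overlapped, so a difference there would be hard to see. The difference was -1.81 ± 0.23 in salt (SE; limma, adjusted p = 0.0022) and -0.21 ± 0.23 in water (adjusted p = 0.516), an interaction of -1.6 ± 0.33 (adjusted p = 0.0183). It was not called by voom (-1.34, adjusted p = 0.238), with a pseudocount of 0.1 (-1.45, adjusted p = 0.0959) or without both osmft1 libraries numbered 1 (-1.59, adjusted p = 0.074).

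Os12g0236100 (chromosome 12, 2764 bases) had 4.43, 5.36 and 4.83 FPKM in osmft1 salt against 10.2, 9.09 and 11.2 FPKM in WT salt. In water the values were 11, 9.05 and 7.02 FPKM in osmft1 and 8.07, 7.27 and 7.01 FPKM in WT, which overlapped. With salt it fell by 0.75 in osmft1 (limma, adjusted p = 0.00187) and rose by 0.4 in WT (adjusted p = 0.0421). The genotype difference was -0.92 ± 0.15 in salt (SE; limma, adjusted p = 0.00765) and 0.23 ± 0.15 in water (adjusted p = 0.269). Its interaction of -1.15 ± 0.21 (adjusted p = 0.0146) was -0.96 without both osmft1 libraries numbered 1 (adjusted p = 0.0581).

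**Figure D5:**
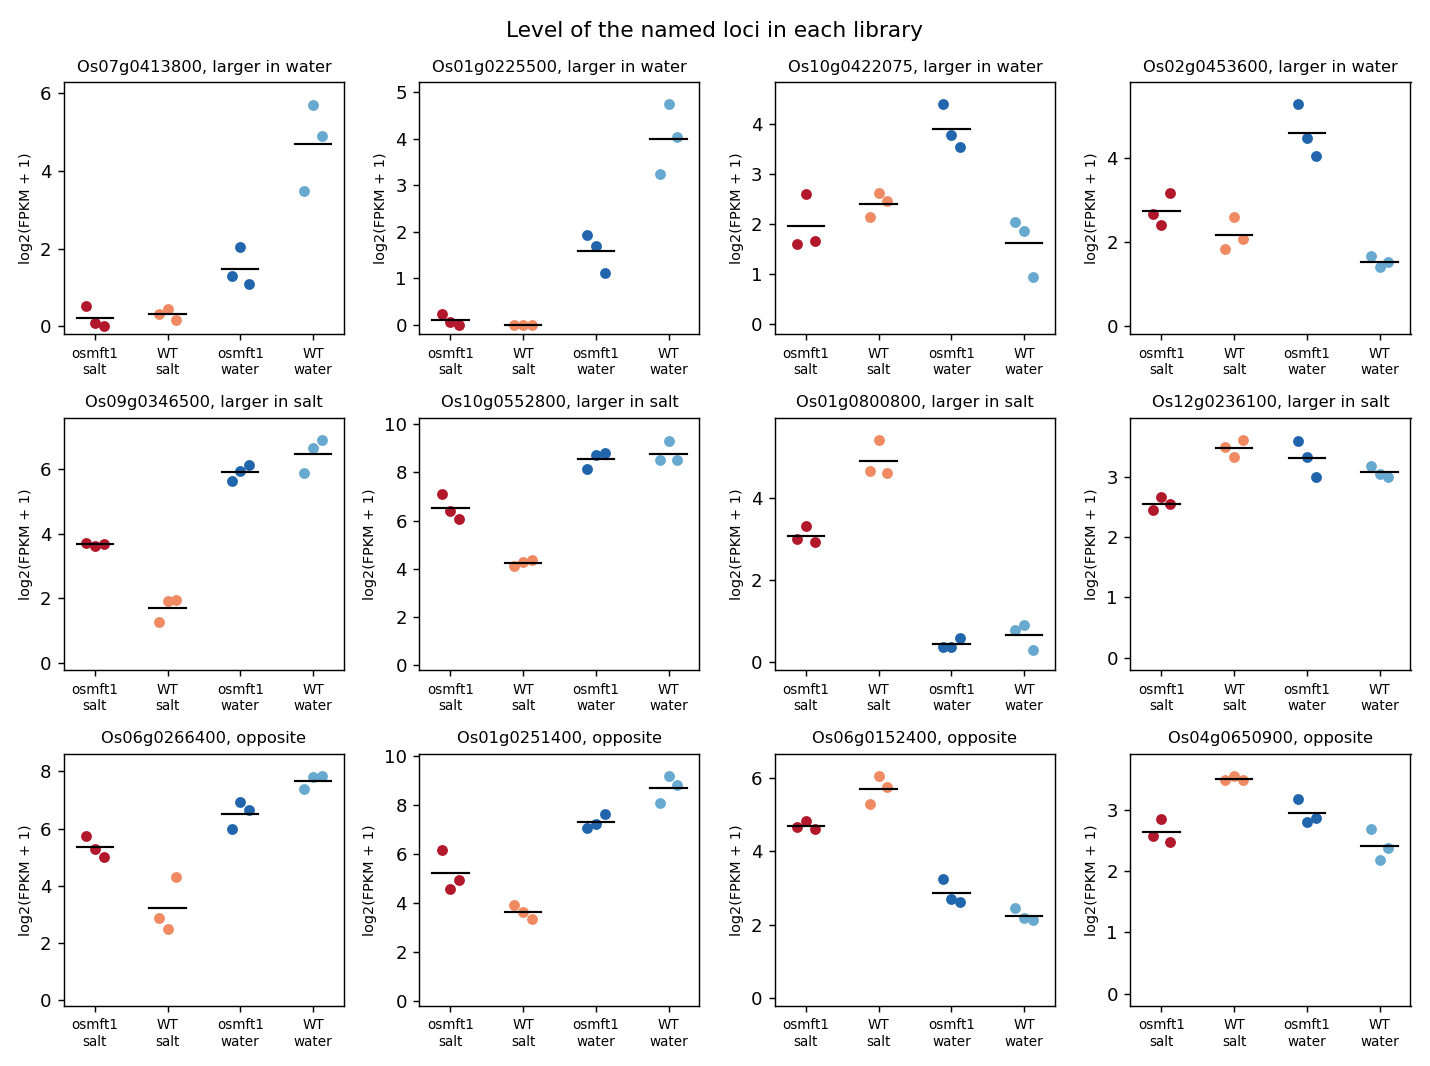
Each panel shows a named locus, with log2(FPKM + 1) (y axis) in each library of the 4 groups (x axis) as points and the group mean as a line. The loci in the upper row were chosen to separate in water and those in the middle row in salt. In the lower row, chosen by calls in both treatments, the genotypes separate in both in opposite directions.

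At 114 IDs the genotypes were called in both treatments with opposite signs, 108 of them higher in osmft1 in salt and lower in water, and 6 the other way. Of the 108, 107 were among the IDs not resolved above, as were all 6 of the others, so they are not a set apart from those. The 108 had a mean log2(FPKM + 1) of 4.24 ± 0.13 in osmft1 salt, 3.38 ± 0.0791 in WT salt, 4.64 ± 0.0797 in osmft1 water and 5.39 ± 0.157 in WT water (SD, n = 3 libraries). The osmft1 groups lay between the WT groups in mean level. All WT salt libraries lay below the other 9 at 90 of the 108, against 10.3% of all tested IDs. All WT water libraries lay above the other 9 at 84, against 9.06%, and the calls that chose these IDs favour this order. The 6 reversed IDs averaged 3.78 ± 0.0946 in osmft1 salt, 4.57 ± 0.123 in WT salt, 3.78 ± 0.21 in osmft1 water and 3.16 ± 0.13 in WT water. Their interaction calls were all kept when any 1 library was left out, but these IDs were chosen by both genotype calls that make up the interaction, so this is not read as stability.

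Os06g0266400 (chromosome 6, 468 bases) had 52.4, 37.7 and 31.2 FPKM in osmft1 salt against 6.35, 4.6 and 18.8 FPKM in WT salt. In water it had 63, 119.7 and 98.9 FPKM in osmft1 against 166.2, 223.5 and 225.7 FPKM in WT. The groups did not overlap in either treatment, and WT salt replicate 3 was the highest of its group. The difference was 2.12 ± 0.4 in salt (SE; limma, adjusted p = 0.0129) and -1.15 ± 0.4 in water (adjusted p = 0.0478), an interaction of 3.27 ± 0.57 (adjusted p = 0.0118) and of 2.81 without both osmft1 libraries numbered 1 (adjusted p = 0.0579).

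Os01g0251400 (chromosome 1, 557 bases) had 70, 22.7 and 29.5 FPKM in osmft1 salt against 13.9, 11.3 and 9.11 FPKM in WT salt. Its water values were 130.5, 146.6 and 194 FPKM in osmft1 against 267.4, 568.3 and 443.3 FPKM in WT. Every library kept to the order WT water, osmft1 water, osmft1 salt, WT salt from high to low. The difference was 1.6 ± 0.37 in salt (SE; limma, adjusted p = 0.0317) and -1.39 ± 0.37 in water (adjusted p = 0.0176), and the interaction was 2.99 ± 0.53 (adjusted p = 0.0126). With salt it fell by 2.07 in osmft1, and it fell by 5.05 in WT.

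Os06g0152400 (chromosome 6, 1698 bases) had 24.4, 27.6 and 23.2 FPKM in osmft1 salt against 37.8, 65.1 and 52.8 FPKM in WT salt. The water libraries gave 8.6, 5.52 and 5.16 FPKM in osmft1 against 4.47, 3.55 and 3.37 FPKM in WT. Salt raised it in both genotypes, by 1.84 in osmft1 and 3.44 in WT. The difference was -0.99 ± 0.21 in salt (SE; limma, adjusted p = 0.0206) and 0.61 ± 0.21 in water (adjusted p = 0.0459), an interaction of -1.6 ± 0.3 (adjusted p = 0.0144) and of -1.38 without both osmft1 libraries numbered 1 (adjusted p = 0.057).

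Os04g0650900 (chromosome 4, 2822 bases) had 4.96, 6.23 and 4.58 FPKM in osmft1 salt against 10.3, 10.8 and 10.2 FPKM in WT salt. For seeds in water it had 8.03, 5.99 and 6.33 FPKM in osmft1 against 5.42, 3.53 and 4.2 FPKM in WT. It rose with salt in WT by 1.1 (limma, adjusted p = 0.000133), and in osmft1 the salt difference was -0.31 ± 0.16 (SE; adjusted p = 0.13). The genotype difference was -0.88 ± 0.16 in salt (SE; limma, adjusted p = 0.0114) and 0.54 ± 0.16 in water (adjusted p = 0.0272), with an interaction of -1.41 ± 0.23 (adjusted p = 0.00863).

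Along the genome the called loci were spread over all chromosomes, from 12.3% of tested Os loci on chromosome 4 to 14.8% on chromosome 2. Of the 572 Os loci larger in water and higher in osmft1, 84 (14.7%) had an adjacent tested locus in the same class, where 5.54% of all Os loci had such a neighbour. Of the 225 larger in water and lower, 12 (5.33%) had one, against 2.22%, and of the 111 larger in salt and higher, 6 (5.41%), against 1.1%. None of the 18 larger in salt and lower had one. With opposite signs, 2 of the 107 higher in osmft1 in salt (1.87%, against 1.06%) and 0 of the 5 reversed had one. For all called loci the share was 30.7%, against 25.4%. The calls were least frequent among low loci, at 5.43% of the lowest 25% of IDs by mean level and 17.5% of the highest 25%.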

How the data were processed

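RNA-seq libraries were made from total RNA of whole seeds. The authors deposited 1 file per library holding FPKM values, a unit read from the values since no header states it. Bowtie2 2.2.3, HTSeq 0.6.0 and HISAT2 2.1.0, with the build IRGSP-1.0, are listed without role in the submitters' processing notes. How FPKM were computed from counts, with which annotation release and whether by strand, is not given in the sources used here, so overlapping, antisense and near-identical genes may share reads. Whole reads and implied lengths were recovered from the steps between low values within 0.003 reads. IDs with at least 1 FPKM in 3 libraries were tested on log2(FPKM + 1), which understates changes of low genes, with limma 3.58.1 in R 4.3.3, 1 mean per group, a variance trend and 8 residual degrees of freedom. The call rule and the classes were tested on simulated data, where changed IDs differed in 1 treatment only. No changed ID fell in a wrong class, but a change in 1 treatment fixes the sign of the mean difference. That outcome was therefore nearly certain beforehand and is a check of the code, not of the classes in the real data. No ID was simulated with differences in both treatments. Moderate changes were often not called or not resolved. Full recovery was seen only for large changes at well-expressed IDs, so the class counts may be too low on that ground. The simulated libraries had no shift in scaling or with length between them. The simulation therefore cannot tell how such shifts in the real libraries move IDs between classes. Groups came from the sample titles. Same-numbered libraries did not deviate together (4 of 18 pairs with r over 0.1), so no block was used. Within groups, chi-square per degree of freedom was 7.92 to 24.7, so no library repeats another. Members, classes and lists were chosen with earlier results of these data known, and the gene lists were not used because the IDs have no names. Per class and direction, 2 loci were named. No value needed a permutation test. Python 3.11.15, pandas 2.3.3, numpy 2.4.6 and matplotlib 3.10.9 were used.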

Additional observations from a re-analysis of the deposited data

Results flagged for a closer look

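The salt response differed between the genotypes, by the interaction test in limma at an adjusted p under 0.05, at 2872 IDs. The 12 named loci were chosen among these IDs by the size of the interaction, so that each is called is no further result. No explanation was weighed. Where the genotypes differed more in water, the interaction was 3.1 at Os07g0413800, 2.53 at Os01g0225500, -2.74 at Os10g0422075 and -2.51 at Os02g0453600. Where they differed more in salt, it was 2.52 at Os09g0346500, 2.51 at Os10g0552800, -1.6 at Os01g0800800 and -1.15 at Os12g0236100. Where the genotype differences had opposite signs, it was 3.27 at Os06g0266400, 2.99 at Os01g0251400, -1.6 at Os06g0152400 and -1.41 at Os04g0650900. Groups of 3 libraries are too small to single out a library as an outlier.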

How the results depend on the processing

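IDs called in the interaction, larger in water, larger in salt, called in water only and called in salt only numbered 2872, 831, 140, 2077 and 328. With no filter they numbered 1247, 308, 71, 877 and 184, and without both osmft1 libraries numbered 1 they numbered 317, 72, 18, 217 and 61. With the length trend removed, 1841 were called, 510 were larger in water and 1274 were called in water only. A 2-fold threshold left 1716, 67 and 14 for the first 3 counts, and an adjusted p under 0.01 left 160, 28 and 7. The 67 and 14 met a stricter condition than a 2-fold interaction. The interaction was at least 2-fold at 531 of the 831 IDs larger in water and at 61 of the 140 larger in salt. Larger in salt numbered 90 and 92 with median-ratio and upper-quartile scaling, and salt only 208 and 210, with 204 by voom and 115 with each treatment fitted alone. Leaving out 1 library gave 752 to 4202 called, 158 to 1142 larger in water, 37 to 148 larger in salt, 462 to 3057 in water only and 106 to 360 in salt only. The cause was not tested, beyond fewer libraries or IDs entering a fit. Positive interactions made up 53.1% of those called, 34.9% without the 50 most abundant IDs, 65.1% with no filter, 83.3% without both osmft1 libraries numbered 1, and 73.7%, 72.9% and 71.9% without osmft1 water replicate 1, WT water replicate 3 and osmft1 salt replicate 3. With the replicate block the first 3 counts were 3263, 984 and 154, and since the numbers do not pair the libraries (the closest deviation had the same number for 5 of 12 libraries) this is given once. The 12 named loci were chosen to keep their call without any 1 library, so those fits say nothing of their stability. Outside them and the 2-fold threshold, 124 of 144 interaction values of these loci were still called and none reversed, and calls were lost at an adjusted p under 0.01 (9), under voom (3), with a pseudocount of 0.1 (2) and without both osmft1 libraries numbered 1 (6). A changed filter, no variance trend, the replicate block and the stricter adjusted p leave the estimate itself as it was, so no sign could reverse there. The loci were also chosen for large interactions in these data, so these counts are not read as stability. Low loci limit the classes, since a locus near 0 in one treatment cannot show a difference there.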

Other observations

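The longest run of adjacent tested Os loci that were all called in the interaction held 6 loci and lay on chromosome 12. The longest run of loci larger in water and higher in osmft1 held 4 and lay on chromosome 7. EPlOSAG IDs (median implied length 63 bases) were called at 5.82% of those tested, and Os loci (1524 bases) at 13.7%.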
